A study of Mus musculus with 3 samples.

Results

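The genes described here are 8 members of the poly(ADP-ribose) polymerase (PARP) family, *Parp1*, *Parp2*, *Parp8*, *Parp9*, *Parp10*, *Parp11*, *Parp12* and *Parp14*, together with *Dtx3l*. They were taken by gene symbol, and all 9 are among the 32285 genes counted. They were followed in bone marrow derived macrophages (BMDMs) of female C3H/HeN mice, 6 to 8 weeks old by the labels. The labels say that marrow was pooled before culture, and so does the culture section of the study's methods. Those methods give mice of 6 weeks. Their single-cell section instead describes cells of 3 mice treated independently and pooled afterwards. Cells were untreated (UI, kept in PBS and collected with the 4 hour cells) or given purified *Borrelia burgdorferi* lipoproteins (*Bb*LP) at 1 µg/mL. Treatment lasted 1 hour in the library called LP1 and 4 hours in the one called LP4. RNA of single cells was counted with a droplet-based 3′ assay, in which a unique molecular identifier (UMI) marks each captured transcript. Each condition is 1 library that pools the cells of 3 wells, so the spread between cultures was not measured and no test between conditions was made.

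After limits on UMIs, genes and mitochondrial share, 6071 UI, 5065 LP1 and 4670 LP4 cells were kept, with 35688939, 52475723 and 61402275 UMIs. The median cell held 5133 UMIs in UI, 9343 in LP1 and 11784 in LP4, so depth moved with treatment. The 8 macrophage markers summed to between 10570 and 11693 UMIs per 1000000 (CPM) in the 3 libraries. Neutrophil markers summed to 276 to 522 CPM, dendritic cell markers to 144 to 146 CPM, stromal markers to 3.47 to 15.4 CPM and lymphoid markers to under 1 CPM, with *Cd3e* at 0 in every library. The part of these differences in the results below was not tested. The libraries share 21 barcode sequences in all, and leaving those cells out gave a median log2 ratio of 2.29 for the interferon-linked genes in LP4 over UI, as with them.

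PARP enzymes take nicotinamide adenine dinucleotide (NAD) and attach its ADP-ribose to proteins and nucleic acids. PARP1 and PARP2 sense broken DNA and build chains of ADP-ribose there, whereas most other members add only a single unit or are inactive. *Parp9*, *Parp10*, *Parp11*, *Parp12* and *Parp14* are known as interferon-stimulated genes, and DTX3L is a ubiquitin ligase of the Deltex family that binds PARP9. These 6 are called the interferon-linked genes here and *Parp1* and *Parp2* the DNA repair genes, while *Parp8*, a little-studied member, is given on its own.

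*Parp14*, *Dtx3l* and *Parp9* are neighbours on mouse chromosome 16 (GRCm38, positions of GENCODE vM21). *Parp14* lies at 35832874 to 35871544 on the minus strand and *Dtx3l* at 35926511 to 35939151 on the minus strand. *Parp9* lies at 35938470 to 35972605 on the plus strand, so that the spans of *Dtx3l* and *Parp9* share 682 bases at their 5′ ends. *Parp11* (127446840 to 127494261, plus strand) and *Parp12* (39086410 to 39118349, minus strand) are both on chromosome 6. *Parp10* is on chromosome 15 (76231174 to 76243441, minus strand), *Parp8* on chromosome 13 (116854820 to 117025537, minus strand), *Parp1* on chromosome 1 (180568924 to 180601254, plus strand) and *Parp2* on chromosome 14 (50807841 to 50821301, plus strand).

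Interferon acts on many of its targets through short DNA elements near the start of the gene. Promoter windows of RefSeq (GRCm38.p6, 250 bases before to 50 after a start) were found for 6 of the 9 genes, and none for *Parp9*, *Parp10* and *Parp14*. Both strands were searched for the core of the interferon response element (GAAANNGAAA). Of 32851 windows of this length, 3.44% hold it. These 6 hold *Dtx3l*, *Parp11* and *Parp12* of the interferon-linked genes, besides *Parp1*, *Parp2* and *Parp8*. Among the 6 genes, *Parp11* was the one with a match. Its first window holds the response element core on the minus strand, read as TTTCGATTTC on the plus strand, from base -44 to -35 before the start. The second *Parp11* window, further 3′, does not hold it. For comparison, 5 of 8 interferon comparison genes with a window hold the core. So does 1 of 7 other PARP family genes with a window, *Parp4*, whose LP4 to UI log2 ratio was 0.83, under 2-fold. A match is a description of letters, not of a bound factor. The 120 bases before the start are shown for *Parp11*, which had the largest LP4 to UI ratio of the 9 genes, for *Parp12*, which was also higher but lacks these letters, and for *Parp1*, which was lower, with the match in capitals. They lie at chr6:127446720-127446839 (plus strand), chr6:39118350-39118469 (minus strand) and chr1:180568771-180568890 (plus strand). Their G and C content is 40.8%, 81.7% and 71.7%.
Parp11: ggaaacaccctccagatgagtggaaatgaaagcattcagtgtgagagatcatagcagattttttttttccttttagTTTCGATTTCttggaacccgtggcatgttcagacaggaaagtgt
Parp12: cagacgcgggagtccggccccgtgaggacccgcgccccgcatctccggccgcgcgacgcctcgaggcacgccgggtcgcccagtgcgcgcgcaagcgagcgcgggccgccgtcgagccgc
Parp1: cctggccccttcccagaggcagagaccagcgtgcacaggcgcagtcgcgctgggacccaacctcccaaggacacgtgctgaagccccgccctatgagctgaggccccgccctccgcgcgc

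After 4 hours of *Bb*LP, all 6 interferon-linked genes were at least 2-fold higher than in UI, *Parp8* was also past 2-fold, and *Parp1* and *Parp2* were lower. Of the 14361 genes that reached 20 UMIs over LP4 and UI, 11.6% were at least 2-fold higher in LP4 than in UI and 15.6% at least 2-fold lower. Beside these shares, 7 of the 9 genes were past 2-fold upward and 0 downward. The 9 were chosen with earlier results of these data known, so they are no independent set. The median log2 ratio of the 6 interferon-linked genes was 2.29, that of *Parp1* and *Parp2* was -0.71, and that of all genes was -0.15. The gap of 3.0 between the first 2 medians does not depend on how libraries are scaled. Here and below, intervals are exact, at the 95% level, and cover counting error only.

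*Parp14*, a large ADP-ribosyltransferase with macrodomains that bind ADP-ribose, gave the most UMIs of the set. It stood at 205 CPM (200.2 to 210) in UI, 160 CPM (156 to 163) in LP1 and 1117 CPM (1109 to 1125) in LP4. LP4 was far above the other libraries, and LP1 was the lowest. The LP4 level was 5.45 times that of UI, a log2 ratio of 2.45 (2.41 to 2.48). *Parp14* made up 62.5% of the UMIs of the 6 interferon-linked genes in UI, 59.9% in LP1 and 66.8% in LP4.

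*Parp9*, whose protein has macrodomains and is held to be largely inactive as an enzyme by itself, was at 37.8 CPM (35.8 to 39.9) in UI, 37.1 CPM (35.4 to 38.7) in LP1 and 158 CPM (155 to 162) in LP4. Its partner *Dtx3l* was at 31.0 CPM (29.2 to 32.8) in UI, 22.5 CPM (21.2 to 23.8) in LP1 and 160 CPM (157 to 163) in LP4. The LP4 to UI log2 ratio was 2.07 (1.98 to 2.15) for *Parp9* and 2.37 (2.28 to 2.46) for *Dtx3l*. The pair thus came to nearly equal UMIs in LP4, while *Dtx3l* alone was lower in LP1. Within a library, where no scaling enters, the ratio of *Parp9* to *Dtx3l* UMIs was 1.22 (1.13 to 1.32) in UI, 1.65 (1.53 to 1.77) in LP1 and 0.989 (0.962 to 1.02) in LP4.

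The counting setting for strand is not given in the sources used here, so reads of overlapping genes cannot be told apart with certainty. *Gm15564*, an antisense gene over the 3′ part of *Parp9*, went the other way across libraries, at 64.4 CPM in UI, 35.0 CPM in LP1 and 22.4 CPM in LP4. *Plec*, which overlaps *Parp10* on the same strand, stood at 714, 515 and 709 CPM in the same order.

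*Parp11*, whose transferase has been linked to the nuclear envelope, was the least counted gene in UI, at 8.91 CPM (7.96 to 9.95). It was at 7.41 CPM (6.69 to 8.19) in LP1 and 61.2 CPM (59.3 to 63.2) in LP4. The log2 ratio of LP4 to UI, 2.78 (2.62 to 2.95), was the largest of the 9 and ranked 263 among the 14361 genes. *Parp12*, which carries zinc fingers that bind RNA, was at 30.3 CPM (28.5 to 32.2) in UI, 28.8 CPM (27.4 to 30.3) in LP1 and 140 CPM (137 to 143) in LP4, a log2 ratio of 2.21 (2.11 to 2.30) to UI. *Parp10*, a cytoplasmic transferase of single ADP-ribose units, was at 14.8 CPM (13.6 to 16.1) in UI, 11.1 CPM (10.2 to 12.0) in LP1 and 36.5 CPM (35.0 to 38.0) in LP4. Its log2 ratio of LP4 to UI, 1.30 (1.16 to 1.44), was the smallest of the interferon-linked genes, and its interval lies apart from those of the other 5.

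*Parp8* was at 88.5 CPM (85.4 to 91.6) in UI, 75.5 CPM (73.2 to 77.9) in LP1 and 192 CPM (188 to 195) in LP4. It had the most UMIs after *Parp14* in all 3 libraries, although in LP1 its interval overlapped that of *Parp1*. The log2 ratio of LP4 to UI was 1.12 (1.06 to 1.17), below that of *Parp10*, with intervals that overlap at their ends. Taken as the mean over cells of each cell's CPM, it was 0.92, under 2-fold.

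*Parp1*, the main sensor of DNA strand breaks, was at 72.8 CPM (70.0 to 75.7) in UI and 74.8 CPM (72.5 to 77.2) in LP1, where the intervals overlap. In LP4 it was at 40.9 CPM (39.3 to 42.5), 0.562 times the UI level, a log2 ratio of -0.83 (-0.91 to -0.75). *Parp2*, which acts beside it, was at 17.4 CPM (16.1 to 18.8) in UI, 14.7 CPM (13.7 to 15.7) in LP1 and 11.6 CPM (10.7 to 12.4) in LP4. Its log2 ratio of LP4 to UI was -0.59 (-0.75 to -0.43). Neither was past 2-fold. With the scaling that assumes most genes equal (TMM or median of ratios), every LP4 to UI ratio shifts by 0.17 or 0.21, which leaves *Parp1* at -0.66 or -0.63 and *Parp2* at -0.42 or -0.38.

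**Figure D1:**
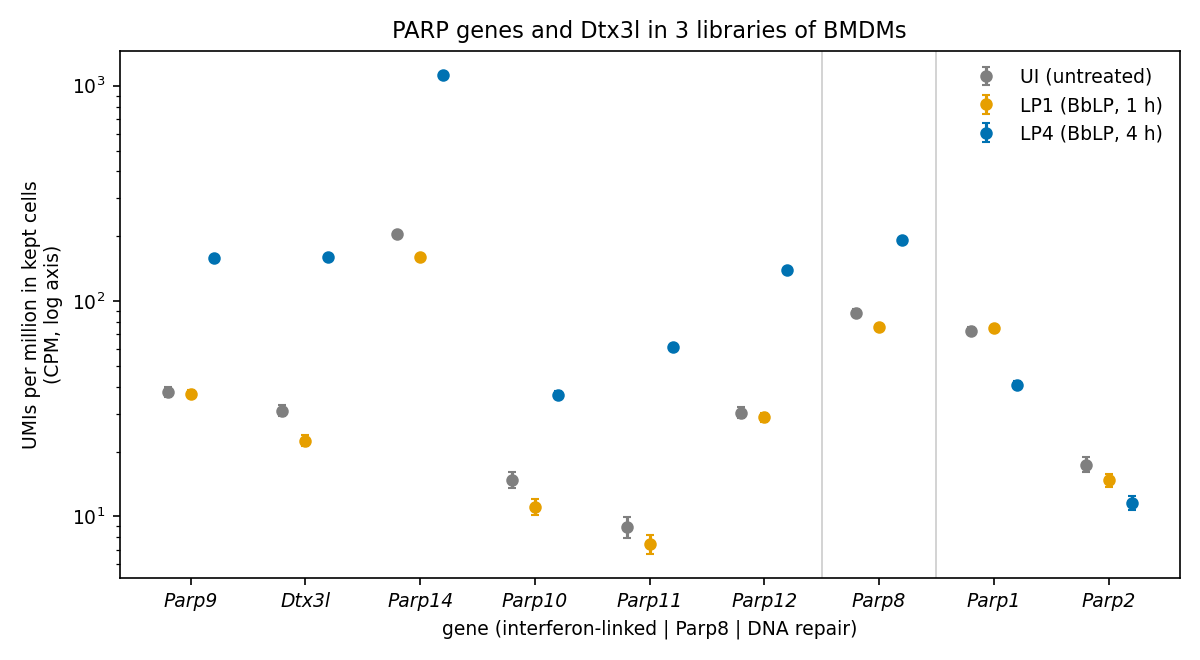
Level of each gene in the 3 libraries, as CPM over kept cells on a log axis, with exact Poisson 95% intervals. The 6 interferon-linked genes and *Parp8* have their highest point in LP4, between 36.5 CPM for *Parp10* and 1117 CPM for *Parp14*, and *Parp1* and *Parp2* their lowest.

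The balance between both groups shifted accordingly. For each UMI of *Parp1* there were 2.81 (2.69 to 2.94) UMIs of *Parp14* in UI, 2.13 (2.05 to 2.22) in LP1 and 27.3 (26.3 to 28.4) in LP4. Summed, the interferon-linked genes had 3.63 UMIs per UMI of *Parp1* and *Parp2* in UI, 2.98 in LP1 and 31.9 in LP4. The 3′ assay tags transcripts near their ends, so these are ratios of captured UMIs that were not scaled by length, and how capture differs between genes was not tested.

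After 1 hour none of the 9 genes was 2-fold apart from UI. Of 14085 genes, 1.45% were at least 2-fold higher in LP1 and 3.15% at least 2-fold lower. The median log2 ratio of the interferon-linked genes was -0.31, with that of all genes at -0.04. *Dtx3l* was lowest, at -0.46 (-0.58 to -0.34), followed by *Parp10* at -0.42 (-0.59 to -0.25), *Parp14* at -0.36 (-0.41 to -0.31) and *Parp11* at -0.27 (-0.48 to -0.05). The intervals of *Parp9*, at -0.03, and *Parp12*, at -0.07, include 0, and with median of ratios scaling their signs turn, to 0.05 and 0.003. *Parp8* was at -0.23 (-0.30 to -0.16), *Parp2* at -0.25 (-0.40 to -0.09) and *Parp1* at 0.04 (-0.03 to 0.11). Between LP1 and LP4, 10.9% of 14506 genes were at least 2-fold higher in LP4, and 7 of the 9 genes were, with log2 ratios from 1.35 (*Parp8*) to 3.05 (*Parp11*). *Dtx3l* at 2.83 (2.74 to 2.92) and *Parp14* at 2.81 (2.77 to 2.84) did not differ beyond counting error in this step. The comparison shares the LP4 library with the one to UI.

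The other PARP family genes were mostly within 2-fold. In LP4, 1 of 8 was at least 2-fold higher than UI and 0 lower, beside 11.6% and 15.6% of all genes. Their median log2 ratio was 0.46, with that of all genes at -0.15. Intervals lay above 0 for 6 of the 8 and below 0 for 2, counts without a background, since such intervals were not counted over all genes. *Tiparp*, a transferase induced through the aryl hydrocarbon receptor, was at 201 CPM in UI, 192 CPM in LP1 and 524 CPM in LP4, a log2 ratio of 1.38 (1.35 to 1.42). *Zc3hav1*, the antiviral zinc finger protein also called ZAP, had a ratio of 0.88 (0.84 to 0.92), which passes 2-fold with TMM, at 1.05, and *Parp4*, a part of the vault particle, one of 0.83, which does so with median of ratios scaling, at 1.04. *Tnks2*, a tankyrase, was the least changed, at 0.11 (0.05 to 0.18). *Parp16*, at -0.98, passes 2-fold downward, at -1.01, when mitochondrial and ribosomal protein genes are left out of the totals. In LP1, 0 of 8 were past 2-fold in either direction, beside 1.45% of all genes higher and 3.15% lower. The least changed, *Parp6*, was at 0.002.

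**Figure D2:**
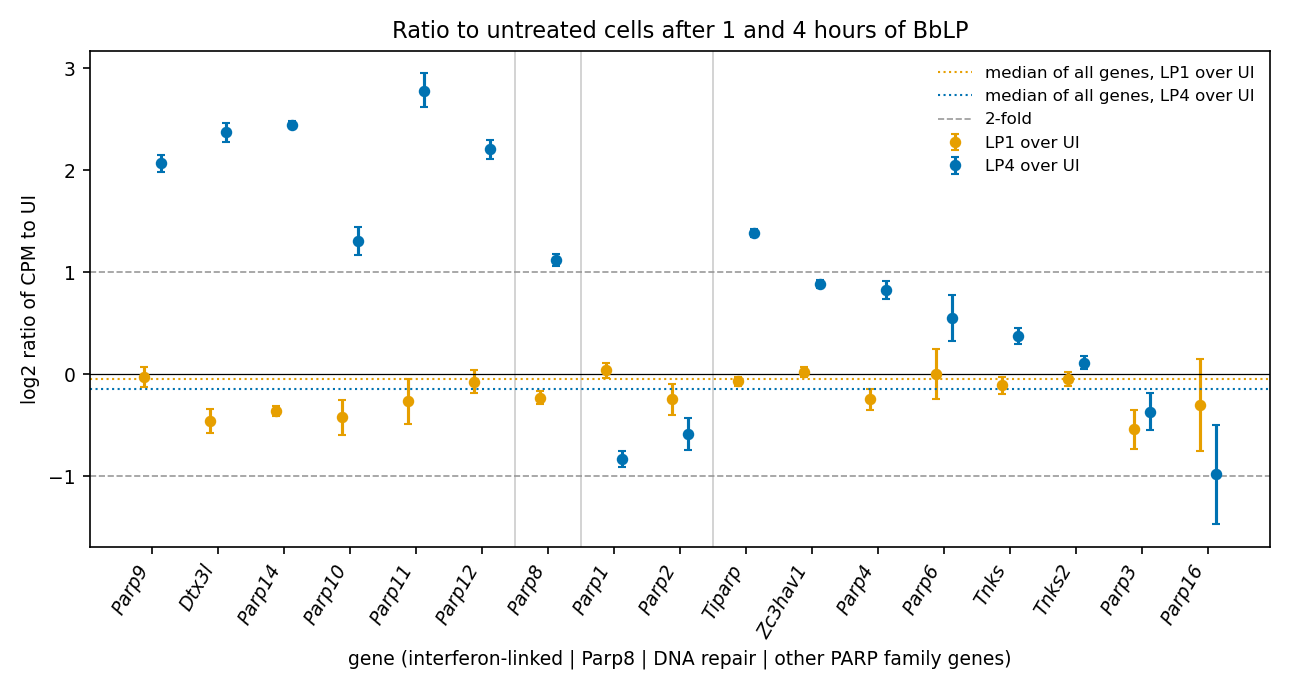
Log2 ratio of CPM to UI for LP1 and LP4, with exact 95% intervals of counting error, for the 9 genes and 8 other PARP family genes. Points above the upper dashed line are at least 2-fold higher, and dotted lines mark the median of all genes, -0.04 for LP1 and -0.15 for LP4. All LP1 points lie between the dashed lines.

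Genes that remove ADP-ribose or assist its transfer stayed within 2-fold in LP4, with a median of 0.01. They counted 0 of 7 in either direction, beside 11.6% of all genes higher and 15.6% lower. The least changed was *Adprh*, an ADP-ribosylarginine hydrolase, at 0.01. Of the 8 genes of NAD supply and use, 1 was higher and 2 were lower, beside the same shares of all genes. *Nampt*, the rate-limiting enzyme of NAD salvage, was at 75.4 CPM in UI, 80.4 CPM in LP1 and 290 CPM in LP4, a log2 ratio of 1.94 (1.89 to 2.00). *Naprt*, which starts NAD synthesis from nicotinic acid, was at -1.12 and *Nmnat3*, an NAD synthesis enzyme of mitochondria, at -1.01. With TMM these last are -0.95 and -0.84, within 2-fold, and *Cd38*, which consumes NAD, moves from 0.84 to 1.05 with median of ratios scaling. *Sirt1*, an NAD-using deacetylase, was the least changed at -0.23.

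Of the other Deltex genes, *Dtx1* had 1 to 3 UMIs a library and was not compared. *Dtx2*, a ubiquitin ligase like *Dtx3l*, was at 18.0 CPM in UI, 15.9 CPM in LP1 and 61.4 CPM in LP4, a log2 ratio of 1.77 (1.65 to 1.90). It was 1 of 3 at least 2-fold higher, beside 11.6% of all genes. *Dtx3* was the least changed, at 0.10 (-0.11 to 0.31).

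Among 7 base excision repair partners of *Parp1*, 3 were at least 2-fold lower in LP4 and 0 higher, with a median log2 ratio of -0.89, beside -0.15 for all genes. Of all genes, 15.6% were at least 2-fold lower. Intervals lay below 0 for 6 of the 7 and above 0 for 1, *Polb*, at 0.40 (0.31 to 0.50). How many of all genes have such intervals was not counted, so these counts stand without a background. *Ung*, which removes uracil from DNA, was at -2.06 (-2.45 to -1.69), from 5.72 CPM in UI to 1.37 CPM in LP4. *Apex1*, which cuts abasic sites, was at -1.17, or -0.97 with median of ratios scaling. *Lig3*, a DNA ligase, was the least changed, at -0.36. At 1 hour 0 of the 7 were past 2-fold, beside 1.45% of all genes higher and 3.15% lower.

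Classical interferon-stimulated genes gave a scale for the interferon-linked set. In LP4, 8 of 10 were at least 2-fold higher, beside 11.6% of all genes, and their median log2 ratio was 3.24. The largest were *Ifit1* at 5.67, *Rsad2* at 5.27, *Ifit2* at 4.39 and *Usp18* at 3.40, and the least changed was *Irf9*, a subunit of the interferon-activated factor ISGF3, at 0.23 (0.12 to 0.33). In LP1 their median was -0.30, close to the -0.31 of the interferon-linked PARP genes and *Dtx3l*, but they did not all move alike. Intervals lay below 0 for 8 of the 10, included 0 for *Usp18* and lay above 0 for *Isg15*, at 0.31 (0.24 to 0.39). The share of all genes with such intervals was not counted.

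To compare cells at equal depth, each was thinned to 2000 UMIs, which left 5949 UI, 5052 LP1 and 4625 LP4 cells and dropped 122, 13 and 45. *Parp14* had a UMI in 29.5% of UI cells (28.3 to 30.7), 23.6% of LP1 cells (22.4 to 24.7) and 83.1% of LP4 cells (82.0 to 84.2). *Dtx3l* had one in 6.07%, 4.26% and 29.1% (27.7 to 30.4), and *Parp9* in 7.21%, 6.93% and 27.0% (25.7 to 28.3). *Parp14* was thus seen in most LP4 cells at a depth where its neighbours were seen in fewer than 30% of them. *Parp12* was found in 5.90%, 5.68% and 24.7%, *Parp11* in 2.05%, 1.33% and 10.3%, and *Parp10* in 2.96%, 2.28% and 7.18%. *Parp8* went from 15.8% and 13.3% to 26.7%, and *Parp1* from 12.4% and 12.3% to 6.66% (5.96 to 7.42). *Parp2*, at 2.84%, 2.71% and 2.25%, had overlapping intervals in all 3.

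Without thinning, LP4 cells with a UMI made up 98.5% for *Parp14*, 80.6% for *Dtx3l*, 79.5% for *Parp9*, 76.2% for *Parp12*, 44.5% for *Parp11*, 35.4% for *Parp10* and 71.0% for *Parp8*. *Parp1* showed how depth enters. Its unthinned share was 31.2% in UI and 35.0% in LP4, against its lower CPM in LP4, so no order is read from it.

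**Figure D3:**
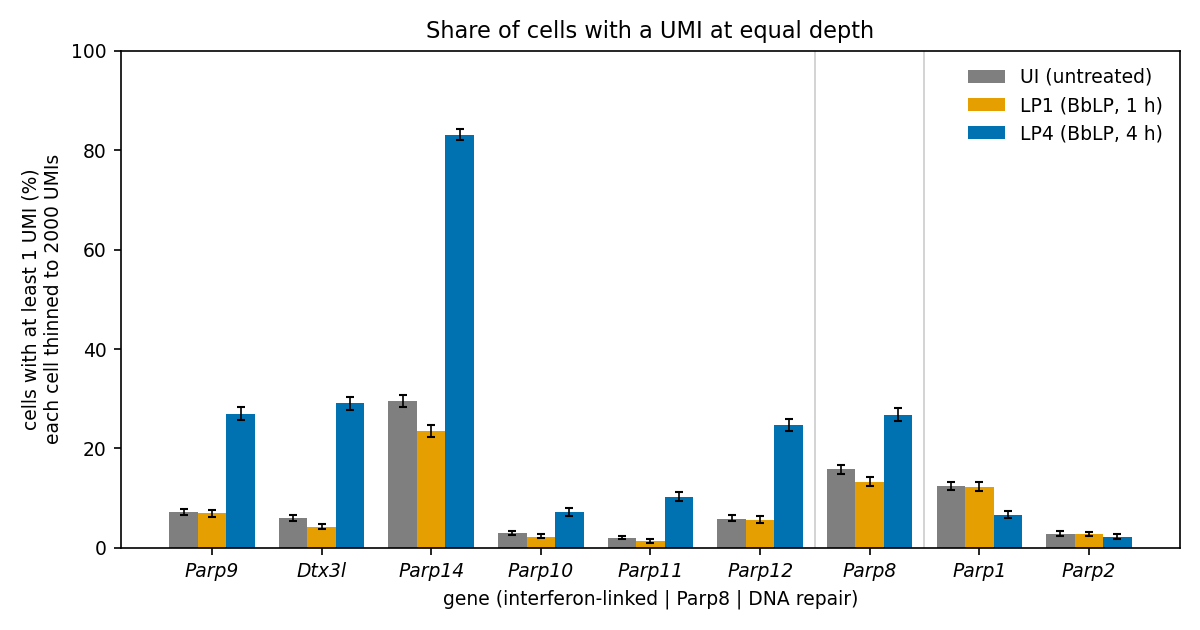
Share of cells with at least 1 UMI of each gene after thinning each cell to 2000 UMIs, as bars from 0 with exact binomial 95% intervals. *Parp14* reaches 83.1% in LP4 from 29.5% in UI, while *Parp1* goes from 12.4% to 6.66%.

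No cell type in these cultures is known to lack these genes, so the share in neutrophil-like cells is given for comparison and is no true background. *Mpo*, *Ms4a3* and *Elane* were among their leading genes, and all 8 cycling markers were at least 2-fold higher. Without thinning, *Parp14* had a UMI in 2 of 32 such cells in UI and 10 of 28 in LP4. *Rsad2* had one in 1 of 32 and 13 of 28 and *Dtx3l* in 1 of 32 and 4 of 28, whereas *Parp11* and *Parp12* had 0 in both. These unthinned shares also carry the difference in depth. At 2000 UMIs *Parp14* had a UMI in 2 of 21 such cells in UI, 9.52% (1.17 to 30.4), and in 2 of 28 in LP4, 7.14% (0.877 to 23.5), so no rise was seen at equal depth. Before thinning, the median depth of these LP4 cells was 9262 UMIs beside 11838 in all LP4 cells. In the thinned LP4 data *Parp9* had a UMI in 5 of 28, 17.9% (6.06 to 36.9), which overlaps the share in all cells. *Parp12*, *Dtx3l* and *Parp11* had one in 0 of 28, which allows a share of up to 10.7% (3 counts of 28), below the LP4 shares of *Parp12* and *Dtx3l* but not that of *Parp11*.

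More LP4 than UI or LP1 cells held UMIs of several interferon-linked genes. At 2000 UMIs, 59.2% of LP4 cells held a UMI of at least 2 of the 6 genes, compared with 10.2% of UI and 7.40% of LP1 cells. At least 3 were seen in 23.2%, 1.58% and 1.27%. None of the 6 was seen in 6.85% of LP4 cells and in 58.3% of UI and 64.9% of LP1 cells. At full depth, 97.0% of LP4 cells had at least 2. Such counts rise with the share of each gene alone, so they do not show that the genes go together within cells.

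**Figure D4:**
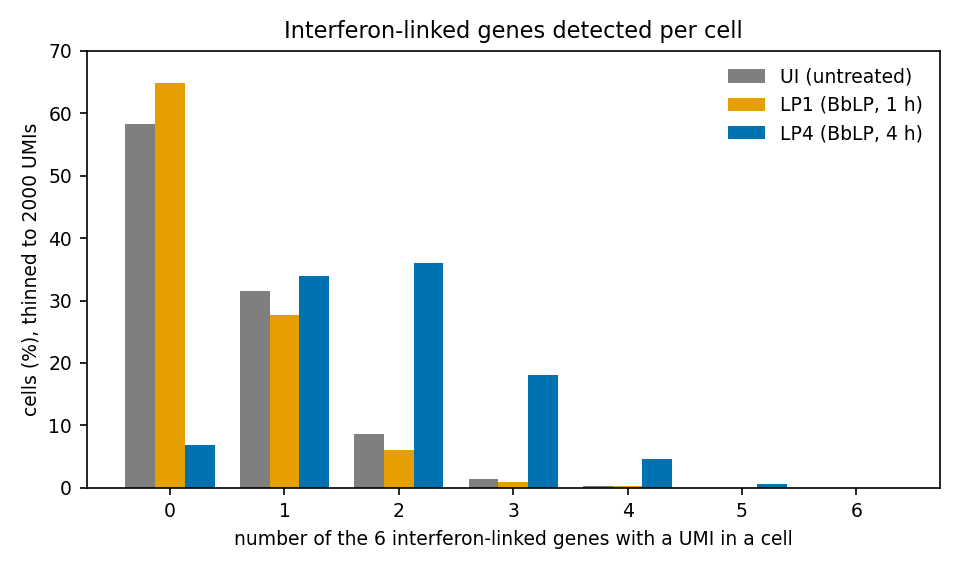
Number of the 6 interferon-linked genes with a UMI in a cell, as the share of cells of each library after thinning to 2000 UMIs. UI and LP1 peak at 0 genes, with 58.3% and 64.9% of cells, and LP4 peaks at 2 genes, with 36.0%.

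In LP4, *Dtx3l* was seen in 31.5% (29.0 to 34.2) of cells with a *Parp9* UMI and in 28.1% (26.6 to 29.7) of those without, intervals that overlap. In UI the shares were 10.5% (7.75 to 13.8) and 5.72% (5.13 to 6.37), which do not. In LP1 they were 5.43% (3.30 to 8.35) and 4.17% (3.62 to 4.78), which overlap again. These calls move with depth. At 4000 UMIs the LP1 shares, 14.0% (11.4 to 16.9) and 7.86% (7.07 to 8.71), lie apart, and at 1000 UMIs the UI shares, 4.48% (2.17 to 8.09) and 3.29% (2.85 to 3.78), overlap. *Dtx3l* had a UMI in 29.9% (28.5 to 31.4) of LP4 cells with *Parp14* and in 24.7% (21.7 to 27.9) of those without, and in UI in 10.4% (8.99 to 11.9) and 4.27% (3.68 to 4.92). *Parp9* had one in 12.6% (10.8 to 14.6) of LP1 cells with *Parp14* and 5.18% (4.5 to 5.93) of those without. In UI its shares were 10.1% (8.77 to 11.7) and 5.98% (5.28 to 6.74). In LP4 its intervals, at 27.7% and 23.6%, overlap at 2000 UMIs but lie apart at the other depths. These LP4 shares were 15.9% (14.6 to 17.2) and 12.3% (10.8 to 13.9) at 1000 UMIs, and 47.5% (46.0 to 49.0) and 34.9% (28.5 to 41.8) at 4000. For *Dtx3l* with and without *Parp14*, the LP4 intervals overlap at 1000 UMIs, at 17.0% and 14.2%. *Parp1* had a UMI in 6.48% (5.72 to 7.30) of LP4 cells with *Parp14* and in 7.55% (5.80 to 9.64) of those without, and these intervals overlap.

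Across 4625 thinned LP4 cells, correlations of log counts were weak. They were taken in 1 library at 1 depth, and the part of sparse counts in this was not tested. Between the 9 genes the largest Pearson r was 0.093, for *Parp8* and *Parp14*. With the summed interferon comparison genes r was 0.286 for *Parp14*, 0.151 for *Parp8*, 0.095 for *Dtx3l*, 0.056 for *Parp9* and -0.027 for *Parp1*. Of 3102 genes with at least 50 CPM, those most like *Parp14* were *Rsad2* (r = 0.25), *Gbp5*, *Ifit1*, *Ifit2* and *Aff1* (0.183). *Dtx3l* was nearest to *Sdc4* (0.087), *Il15*, *Ms4a4a*, *Ifit1* and *Slfn5* (0.074), and *Parp9* to *Il21r* (0.071), *Gm15987*, *Etv6*, *Malat1* and *Ifit2* (0.059). *Parp1* was nearest to *Ccnd1* (0.082), *Lpl*, *Ptma*, *Lyzl4* and *Actb* (0.067). No gene list is drawn from values of this size.

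Cells were then clustered on genes whose library levels lay within 1.5-fold of each other, leaving out the 9, the other PARP family genes and the interferon comparison genes. Clusters A to F were macrophage-like by their markers, although E was led by DNA replication genes (*Mcm3* to *Mcm7*, *Hells*, *Uhrf1*), G was cycling-like with all 8 cycling markers at least 2-fold higher, H dendritic cell-like and I unnamed, with few UMIs per cell. G was named by a marker rule set after the clusters were seen. In clusters A to I, each of 50 or more cells in UI and in LP4, the log2 ratio of LP4 to UI was above 0 in 9 of 9 for each of the 6 interferon-linked genes and for *Parp8*. Intervals lay above 0 in 9 of 9 for *Parp9*, *Dtx3l*, *Parp14* and *Parp12*. For *Parp10*, *Parp11* and *Parp8* they did so in 8 of 9. *Parp14* ranged from 1.89 (1.81 to 1.96) in A to 3.04 (2.94 to 3.14) in D, and *Dtx3l* from 1.82 in A to 2.95 in H. *Parp9* ran from 1.64 in F to 2.44 in H and *Parp12* from 2.02 in D to 2.99 in F. *Parp10* ran from 0.78 in I to 2.66 in F and *Parp11* from 1.46 in H to 3.23 in G, each with as few as 2 UMIs in a cluster of 1 library. *Parp8* ran from 0.24 (-0.20 to 0.71) in F and 0.34 (0.20 to 0.48) in A to 1.88 (1.67 to 2.10) in C and, on 5 UI and 25 LP4 UMIs, 2.10 in I, and was past 2-fold in 7 of 9. *Parp1* was below 0 in 9 of 9, with intervals under 0 in 8, and *Parp2* in 8 of 9, with intervals under 0 in 3. Cluster F holds 997 LP4 but 76 UI cells, so its UI values rest on few cells, and a cluster mostly of 1 library may be that library rather than a cell state.

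**Figure D5:**
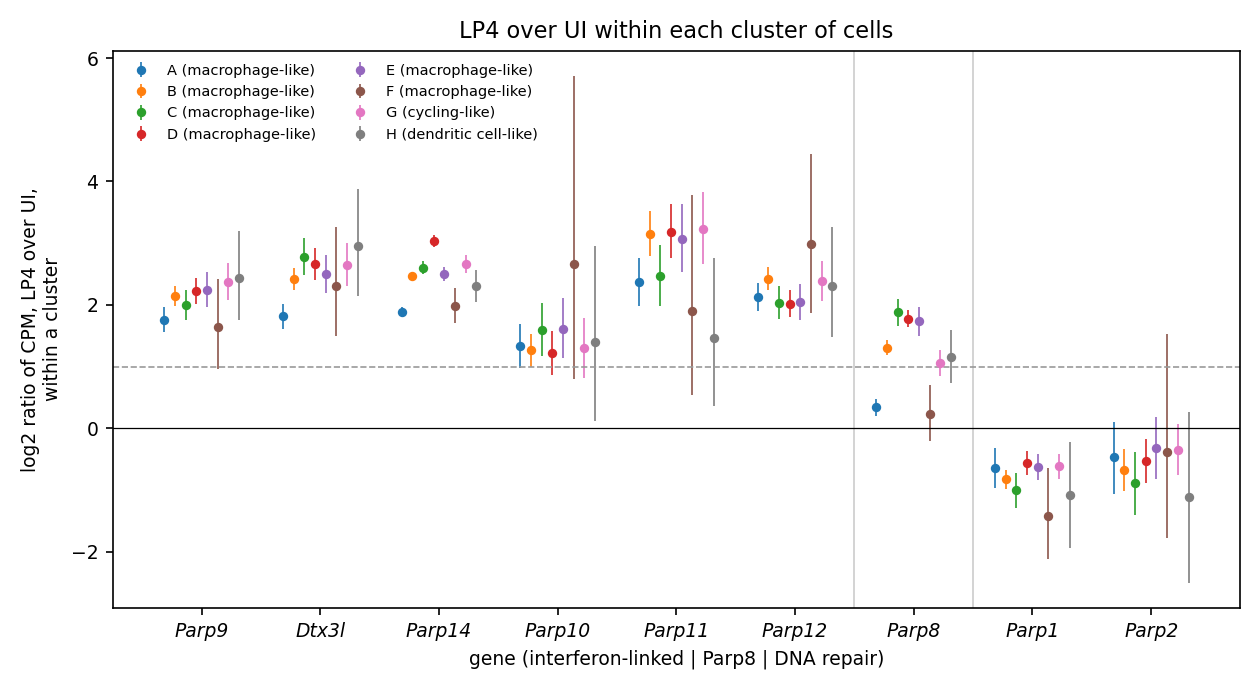
Log2 ratio of LP4 to UI within each named cluster of at least 50 cells in both libraries, with exact 95% intervals of counting error. Points of the 6 interferon-linked genes lie above 0 in all 8 clusters shown, those of *Parp1* and *Parp2* below 0, and *Parp8* runs from 0.24 in F to 1.88 in C.

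Several of the 7 genes that were higher in LP4 differed between clusters in UI. In UI, among the 6 clusters that held 200 or more cells of each library, cluster A, led by *Egr3* and *Cd86*, had the highest CPM of all 6 interferon-linked genes and of *Parp8*. This rests on the limit of 200 cells. With named clusters of 50 or more cells, F was highest for *Parp14* (367 CPM) and *Parp9* (58.3 CPM). H was highest for *Parp11* (15.5 CPM), and F and H held 76 and 92 UI cells. *Parp14* was at 343 CPM in A and 122 CPM in D, a ratio of 2.81, and *Parp8* at 177 CPM in A and 46.2 CPM in C, a ratio of 3.83. *Dtx3l* was at 52.2 CPM in A and 19.9 CPM in D. In LP4 the highest of the 6 clusters exceeded the lowest by less, at 1.49 times for *Parp14*, 1.53 for *Parp8*, 1.46 for *Dtx3l*, 1.31 for *Parp9* and 1.46 for *Parp11*. Among these 6, *Parp10* did not narrow, with 1.64 in UI and 1.77 in LP4, and *Parp12* stood at 1.32 and 1.28, with overlapping intervals of the highest and lowest cluster in UI. This too rests on the limit. With named clusters of 50 or more cells, *Parp10* went from 2.87 in UI, on as few as 2 UMIs, to 1.77 in LP4. *Parp12* then went from 1.73 to 1.35, and the LP4 ratios of *Parp14* and *Dtx3l* were 1.71 and 1.63. Cluster A held 27.6% of UI and 5.5% of LP4 cells, so the same cluster may not hold the same cells.

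Among named clusters of 50 or more cells, *Parp1* and *Parp2* were highest in the cycling-like cluster in every library, but the *Parp1* intervals of E, at 113, 118 and 73.2 CPM, overlap those of G. The *Parp2* intervals of E overlap those of G as well, at 18.4 CPM (14.3 to 23.3) in UI, 19.1 CPM (16.0 to 22.6) in LP1 and 14.8 CPM (11.5 to 18.6) in LP4. In G *Parp1* was at 122 CPM in UI, 125 CPM in LP1 and 79.8 CPM in LP4, and *Parp2* at 26.9, 24.6 and 21.1 CPM. Over the macrophage-like clusters, the log2 ratio of *Parp1* was 0.84 (0.69 to 1.0) in UI, 0.85 (0.73 to 0.97) in LP1 and 1.07 (0.92 to 1.23) in LP4, and that of *Parp2* was 0.73, 0.90 and 0.99. *Parp14* was lower in cycling-like cells, at -0.66, -0.57 and -0.42. These macrophage-like clusters include E, and without it *Parp1* was 0.98 (0.83 to 1.14), 1.05 (0.93 to 1.17) and 1.21 (1.05 to 1.37) higher in G on the log2 scale. Over the same clusters *Parp1* was 0.87 (0.72 to 1.03), 0.97 (0.85 to 1.09) and 1.08 (0.91 to 1.25) higher in E. The 25 to 32 neutrophil-like cells of a library gave *Parp2* 4 to 7 UMIs, at 25 to 49.7 CPM with wide intervals. Within G, *Parp1* was at -0.61 (-0.81 to -0.41) in LP4 over UI. Over all kept cells of a library, cycling markers summed to 480, 584 and 554 CPM in UI, LP1 and LP4. G held 6.64%, 7.72% and 4.86% of the cells in the same order, and E 10.8%, 13.3% and 7.97%. In macrophage-like clusters alone the *Parp1* ratio of LP4 to UI was -0.84, with E and without it.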

How the data were processed

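The authors made the UMI counts with Cell Ranger, listed as version 7.1.0 in the file headers and the submitters' notes, on mm10, and deposited them per gene and barcode without normalization. Whether intronic reads were counted is not given in the sources used here. Barcodes with over 500 UMIs, over 500 genes and under 5% mitochondrial UMIs were kept. Counts were summed per library and scaled to 1000000 (CPM), with exact Poisson, conditional binomial and binomial 95% intervals. UMIs remove PCR duplicates, and the intervals describe counting alone. No p is given, since each condition has 1 library, and a gene was called when 2-fold apart with at least 20 UMIs in the pair. A gene at 0 took a floor of 3 counts in the count of all genes.

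Cells were clustered with scanpy 1.11.5 and leidenalg 0.10.2 at a resolution of 0.5, centred within library, and thinned with a seed of 20. Scrublet marked at most 1 cell a library and so did not work. Removing the 5% of cells with the highest score was an alternative. TMM came from edgeR 4.0.16 in R 4.3.3, and the other steps ran in Python 3.11.15. Ratios were tested on simulated data.

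The members and lists were chosen with earlier results of these data known. Named are all 9 genes and, per list, up to 4 genes past 2-fold by size and the least changed. *Zc3hav1*, *Parp4*, *Parp16*, *Cd38*, *Polb*, *Isg15*, *Gm15564*, *Plec* and *Dtx1* fall outside this rule and were named after their values were seen. Alternatives were other cell limits, scalings, depths and resolutions, macrophage-like clusters alone, cell means and no minimum count, and, added after seeing the data, leaving out shared barcodes or the macrophage-like cluster led by replication genes. One of the listed genes past 2-fold and a promoter motif are not reported here.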

Additional observations from a re-analysis of the deposited data

Results flagged for a closer look

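For 5 of the 9 genes the log2 ratio to UI lay below 0 at 1 hour and above 0 at 4 hours, with the same signs under all 4 scalings. With counts scaled to CPM their intervals lay apart from 0 at both times, but the interval of *Parp11* at 1 hour takes in 0 when shifted by TMM or median of ratios. *Parp1* turned the other way under all 4 scalings, from 0.04 (-0.03 to 0.11) at 1 hour to -0.83 at 4 hours, but its interval at 1 hour includes 0. The log2 ratio in LP4 minus that in LP1 was 3.05 for *Parp11*, 2.83 for *Dtx3l*, 2.81 for *Parp14*, 1.72 for *Parp10* and 1.35 for *Parp8*. These differences equal the log2 ratios of LP4 to LP1, since UI drops out, and add nothing to them. Each time point is 1 library, so the difference was not tested, and the values of the 5 genes at 1 hour are all under 2-fold, from -0.46 for *Dtx3l* to -0.23 for *Parp8*. LP1 has no control of its own time. How many of all genes turn sign in this way was not counted, so the 5 of 9 stands without a background.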

How the results depend on the processing

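No paired analysis was possible because each condition is 1 library. Over 11 alternatives, the log2 ratios of LP4 to UI kept their sign for all 9 genes, and all 6 interferon-linked genes stayed past 2-fold. *Parp8* ranged from 0.92 (cell means) to 1.32, *Parp14* from 2.33 to 2.65 and *Parp1* from -0.91 to -0.63. The median of the interferon-linked genes was 2.46 with TMM and 2.49 with median of ratios, and that of *Parp1* and *Parp2* -0.54 and -0.50, which follows from the shift those scalings give to every gene. The median share of LP4 cells with a UMI of an interferon-linked gene was 25.8% at 2000 UMIs, 13.6% at 1000, 44.3% at 4000 and 77.8% without thinning, as depth sets. The share of LP4 cells with *Dtx3l* among those with *Parp9* was 48.6% at 4000 UMIs. Over clusters, *Parp14* had a smallest ratio of 2.02 when the resolution was 0.3 and of 1.88 when it was 0.8. No minimum count changed no value, since all 9 genes exceed it. Without replicates, the spread between cultures limits every ratio.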
